A study of Mus musculus with 12 samples.

Results

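The kinases of the MAP kinase cascade were examined in the prefrontal cortex of mice after repeated cocaine. Members were the genes whose symbol is Mapk, Map2k, Map3k or Map4k followed by a number and which the authors' comparison listed as testable. In this way 36 genes were found, of 16077 named genes in all: 11 in the MAPK tier, 6 in the MAP2K tier, 15 in the MAP3K tier and 4 in the MAP4K tier. Of these, 35 were present at every time point, and Map3k8 was present at 24 h only. The mice were 10-week-old male C57BL/6J mice that received intraperitoneal cocaine (20 mg/kg) or saline on each of 14 days. The cortex was collected at 2 h, 24 h or 7 d of withdrawal, counted from the final dose. With 5 mice in a library and 2 libraries in a group, the 6 groups came to 12 libraries.

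A MAP kinase cascade is a relay in which each kinase phosphorylates and so switches on the next. MAP4Ks and small GTPases act on MAP3Ks, MAP3Ks phosphorylate MAP2Ks, and MAP2Ks phosphorylate the MAP kinases themselves on a threonine and a tyrosine. The main outlets are the ERK branch, which growth factors and synaptic activity engage in cortical neurons, and the JNK and p38 branches, which respond to stress and cytokines. ERK5 forms a branch of its own, and Mapk4 and Mapk6 encode the atypical kinases ERK4 and ERK3. The flow of signal depends on phosphorylation, which RNA levels do not measure.

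The values are FPKM, fragments scaled to transcript length and to the size of the library, which allow levels to be compared between genes. The authors deposited 1 pooled FPKM per group, so there is no spread between replicates, the depth of the libraries is not known from the tables, and no test was possible. Differences are given as the log2 ratio of cocaine to saline within 1 table after adding 0.5 FPKM. A kinase was counted as past 1.2-fold when this ratio was beyond 0.26 in either direction and its mean FPKM was at least 1. Which of the columns is saline was taken from the study's supplementary gene tables, because the column names do not settle it, and every direction given here rests on that reading. The tables of the 3 time points were normalized separately, so levels set across them are descriptions. In bulk tissue, fewer cells of a type and less RNA per cell cannot be told apart.

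Few kinases were past 1.2-fold, and at this limit their share was below that of all genes at each time point. At 2 h 4 of 32 kinases with a mean FPKM of at least 1 were past 1.2-fold, 12.5% against 14.9% of 13262 genes. At 24 h 2 of 33 were, 6.06% against 9.49% of 13487 genes, and at 7 d 2 of 32, 6.25% against 16.9% of 13310 genes. The kinases past this limit were Map2k3, Map3k6, Map3k11 and Mapk11 at 2 h, Map3k1 and Map3k5 at 24 h, and Map3k9 and Mapk4 at 7 d. Mapk11 was lower in cocaine, and the other 7 were higher. For all genes the higher side held 8.91%, 5.01% and 6.46% at 2 h, 24 h and 7 d, and the lower side 5.97%, 4.48% and 10.4%. Of the 2 at 24 h, Map3k1 reached a mean of 1 FPKM through its cocaine value alone, and with at least 1 FPKM required in both groups 1 of 32 kinases was past 1.2-fold (3.13%, against 7.71% of all genes).

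The reading at 2 h turned with the limit. Past 1.1-fold there were 19 of 32 kinases at 2 h (59.4%, against 37.9% of all genes), 8 of 33 at 24 h (24.2% against 28.5%) and 11 of 32 at 7 d (34.4% against 44.1%). At 2 h the kinases thus exceeded all genes in differences above 1.1-fold, but not in those above 1.2-fold. With a pseudocount of 0.1 FPKM in place of 0.5, 7 of 32 kinases were past 1.2-fold at 2 h (21.9% against 17.8%). No kinase was past 1.2-fold at more than 1 time point with the pseudocount of 0.5, whereas with 0.1 Map2k3 was at 2 h and 24 h and Map3k2 at 2 h and 7 d. The share of all genes past it at more than 1 time point was not counted. With so few kinases past the limit, the lack of overlap cannot be read as a trait of the cascade.

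The abundant transcripts of the cascade were within 1.2-fold. All 11 kinases with a mean of at least 20 FPKM at 2 h stayed within 1.2-fold, as did all 10 at 24 h and all 10 at 7 d. Among all genes at that level 5.83%, 4.65% and 16.8% were past 1.2-fold. The 8 kinases past the limit had means between 1 and 20 FPKM. At 2 h the share of all genes past it was 24.2% between 1 and 5 FPKM, 12.9% between 5 and 20, 5.50% between 20 and 100, and 7.16% above. At 24 h these shares were 15.8%, 7.12%, 3.41% and 9.53%, and at 7 d 21.0%, 13.0%, 14.03% and 27.9%, so at 7 d the share was largest among the highest genes. These differences were mostly in 1 direction: of all genes of at least 20 FPKM at 7 d, 496 were past 1.2-fold lower in cocaine and 112 higher.

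**Figure D1:**
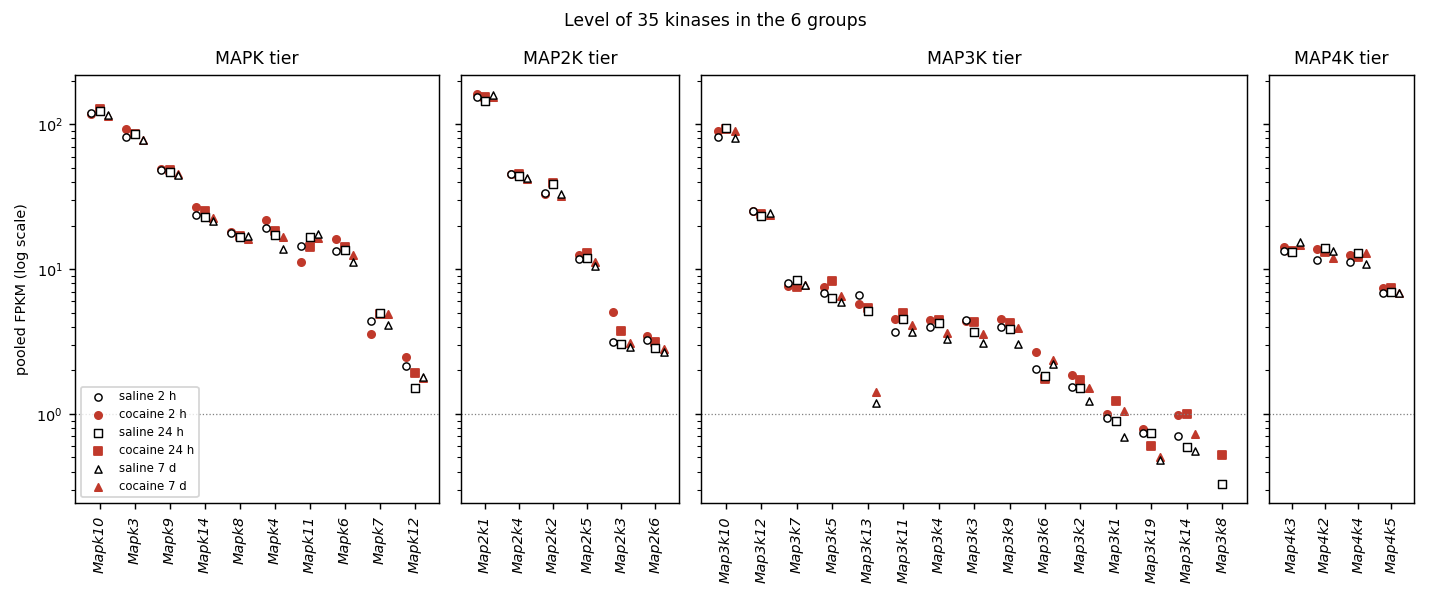
Pooled FPKM (log axis) of 35 kinases in the 6 groups, in 4 panels by tier and ordered by mean saline level; open symbols are saline, filled symbols cocaine, and circles, squares and triangles 2 h, 24 h and 7 d. The dotted line marks 1 FPKM, and most kinases show their 6 values close together while the kinases of a tier differ widely in level.

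In the ERK branch, Mapk3 (GRCm38 chr7:126759601-126765819) had 81.5 FPKM with saline against 93.6 with cocaine at 2 h, 86.3 against 86.2 at 24 h, and 77.6 against 77.9 at 7 d. The 2 h cocaine value was the highest of the 6, with a log2 ratio of 0.20, and the ratios at 24 h and 7 d were -0.00 and 0.01. The 2 h ratio was larger than the spread of the gene's own saline values over the 3 tables, which was 0.15 on the same scale.

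The activators of this branch, the MAP2Ks MEK1 and MEK2, had smaller ratios at 2 h than Mapk3. Map2k1 (MEK1) had 155 FPKM with saline against 162 with cocaine at 2 h, 146 against 155 at 24 h, and 160 against 156 at 7 d. Map2k2 (MEK2) had 33.5 against 33.0 FPKM at 2 h, 38.6 against 39.6 at 24 h, and 33.2 against 32.1 at 7 d. For both genes the ratio farthest from 0, 0.09 for Map2k1 and -0.05 for Map2k2, was smaller than the spread of the saline values, 0.13 and 0.21. The share of Map2k1 in the summed FPKM of the pair was 82.3% with saline and 83.1% with cocaine at 2 h.

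In the JNK branch all ratios were close to 0. Mapk10, which encodes the neuronal JNK3, had 119 FPKM with saline against 118 with cocaine at 2 h, 123 against 127 at 24 h, and 116 against 114 at 7 d. Mapk9 (JNK2) had 48.5 against 49.6 FPKM at 2 h, 47.1 against 48.6 at 24 h, and 44.7 against 45.4 at 7 d. Mapk8 (JNK1) had 17.8 against 17.9 FPKM at 2 h, 16.7 against 17.1 at 24 h, and 16.9 against 16.2 at 7 d. In all 6 groups Mapk10 was thus the most abundant and Mapk8 the least abundant JNK transcript, and at 2 h Mapk10 held 64.2% of their summed FPKM with saline against 63.6% with cocaine. Map2k4, which encodes the JNK activator MKK4, had 45.1 against 45.2 FPKM at 2 h, 43.9 against 45.3 at 24 h, and 42.7 against 42.2 at 7 d. The 12 log2 ratios of these 4 genes lay between -0.06 and 0.05, and none was past the spread of the gene's own saline values. With the median ratio of genes of like transcript length subtracted, the 7 d ratios were -0.16 for Mapk10, -0.14 for Mapk8, -0.04 for Mapk9 and -0.04 for Map2k4. The other JNK activator, Map2k7, was not a member because the tables give it a row shared with Gm14378. That row had 14.6 FPKM with saline against 15.4 with cocaine at 2 h, 15.5 against 15.9 at 24 h, and 15.01 against 16.03 at 7 d.

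At 2 h the kinases with the highest and the lowest ratio of the cascade both belonged to the p38 branch. Map2k3, which encodes the p38 activator MKK3 (GRCm38 chr11:60932033-60952811), had 3.12 FPKM with saline against 5.07 with cocaine at 2 h, 3.04 against 3.73 at 24 h, and 2.89 against 3.08 at 7 d. Its cocaine value was higher at each time point, by 1.63-fold, 1.23-fold and 1.07-fold, and the 7 d cocaine value lay within the range of the saline values. The log2 ratio at 2 h was 0.62, against a spread of 0.09 among its saline values, and 98.2% of all genes had a lower ratio. Map2k3 is a low transcript, and among the 4711 genes within 2-fold of its level 19.9% were past 1.2-fold at 2 h, while 97.7% had a lower ratio than Map2k3. At 24 h its log2 ratio of 0.26 fell just short of the limit. In the 7 d table its locus was 11116 bases longer.

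Map2k6, which encodes the second p38 activator MKK6, had smaller ratios, each within the spread of its saline values (0.25). It had 3.26 FPKM with saline against 3.43 with cocaine at 2 h, 2.85 against 3.14 at 24 h, and 2.66 against 2.80 at 7 d. The 2 activators were thus close in level in saline at each time point, and at 2 h Map2k3 made up 48.9% of their summed FPKM with saline against 59.7% with cocaine. At 7 d its share was 52.1% with saline and 52.3% with cocaine.

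Mapk11, which encodes p38 beta (chr15:89142486-89149606), had 14.4 FPKM with saline against 11.2 with cocaine at 2 h, 16.6 against 14.2 at 24 h, and 17.6 against 16.3 at 7 d. It was lower in cocaine at all 3 time points, with log2 ratios of -0.35, -0.22 and -0.11, and the spread of its saline values was 0.28. At 2 h 3.46% of all genes had a lower ratio than Mapk11, and 1.84% of the 4944 genes within 2-fold of its level. The cocaine values of 2 h and 24 h lay below all 3 saline values, the second narrowly, and that of 7 d lay among them.

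Mapk14, which encodes the broadly expressed p38 alpha, had 23.7 FPKM with saline against 27.0 with cocaine at 2 h, 22.8 against 25.1 at 24 h, and 21.5 against 22.7 at 7 d. Its log2 ratios of 0.18, 0.13 and 0.07 had the opposite sign to those of Mapk11 at each time point. Mapk12 (p38 gamma) was low, with 2.15 against 2.49 FPKM at 2 h, 1.51 against 1.90 at 24 h, and 1.80 against 1.76 at 7 d. The summed FPKM of these 3 p38 kinases was 40.3 with saline and 40.6 with cocaine at 2 h, whereas the share of Mapk14 in it was 58.9% in saline and 66.3% in cocaine and that of Mapk11 35.8% and 27.5%. At 24 h Mapk14 made up 55.7% and 61.0% of the sum, and at 7 d 52.6% and 55.7%. The fourth p38 gene, Mapk13, was not among the testable genes at any time point and was listed at 0.16 to 0.31 FPKM in cocaine and 0.05 to 0.20 in saline.

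The p38 genes form neighbouring pairs in the genome. On chromosome 15 of GRCm38, Mapk12 (89130585 to 89140703) ends 1.78 kb before Mapk11, and on chromosome 17 Mapk14 (28691316 to 28748404) ends 20.9 kb before Mapk13 (28769307 to 28778698). Of the neighbours Mapk11 and Mapk12, the log2 ratio was negative for the first and positive for the second at 2 h and 24 h, and negative for both at 7 d.

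The sequences before the starts of Map2k3 and Mapk11 are shown because these were the genes with the highest and the lowest ratio at 2 h. Each is the 250 bases upstream of the annotated start, from RefSeq on GRCm38, written 5′ to 3′ along the gene's strand, which is plus for Map2k3 (chr11:60931804-60932053) and minus for Mapk11 (chr15:89149607-89149856). The measured Map2k3 locus began at 60932033 at 2 h and 24 h, so the end of its window overlaps that locus. At 7 d the locus began at 60920917, and the whole window lies inside it. Capitals mark matches to the motifs searched on both strands.
Map2k3: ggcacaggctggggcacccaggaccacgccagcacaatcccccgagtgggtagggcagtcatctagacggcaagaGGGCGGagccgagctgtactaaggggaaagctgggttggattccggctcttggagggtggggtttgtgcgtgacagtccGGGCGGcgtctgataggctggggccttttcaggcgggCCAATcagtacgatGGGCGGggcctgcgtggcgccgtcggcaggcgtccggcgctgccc
Mapk11: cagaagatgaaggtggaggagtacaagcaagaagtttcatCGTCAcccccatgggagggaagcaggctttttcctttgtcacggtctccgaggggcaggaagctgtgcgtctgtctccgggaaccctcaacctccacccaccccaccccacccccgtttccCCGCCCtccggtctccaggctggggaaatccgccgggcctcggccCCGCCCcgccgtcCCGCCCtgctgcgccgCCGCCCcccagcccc

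The motifs were the CRE (TGACGTCA), its half-site TGACG, which every CRE holds, the AP-1 site TGANTCA, the EGR site GCGNGGGCG, the GC box GGGCGG, the CCAAT box CCAAT, and the CArG box by name. The Map2k3 window held 3 GC boxes and 1 CCAAT box as written, and the Mapk11 window held 4 GC boxes and 1 CRE half-site, all of them read on the other strand. Neither window had the letters of a full CRE, an AP-1 site, an EGR site or a CArG box. GC boxes occurred in 32.7% of the 32851 windows of this length, CCAAT boxes in 33.8% and CRE half-sites in 17.8%. Full CREs were found in 1.55%, AP-1 sites in 6.75%, EGR sites in 4.70% and CArG boxes in 1.47%. Of the 36 kinases 29 had at least 1 window, and of these 38 windows 25 held a GC box, 11 a CCAAT box, 11 a CRE half-site, 3 an EGR site, 2 an AP-1 site, 1 a full CRE and 0 a CArG box.

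In the ERK5 branch the kinase was lower and its activator higher in cocaine at 2 h, and both were higher at 7 d. Mapk7, which encodes ERK5, had 4.38 FPKM with saline against 3.58 with cocaine at 2 h, 4.98 against 4.90 at 24 h, and 4.12 against 4.88 at 7 d. It was lower in cocaine at 2 h (log2 ratio -0.26, just short of the limit) and higher at 7 d (0.22), and the spread of its saline values was 0.24. Map2k5, which encodes its activator MEK5, had 11.8 against 12.6 FPKM at 2 h, 11.97 against 12.91 at 24 h, and 10.54 against 11.21 at 7 d, with log2 ratios between 0.08 and 0.10.

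The atypical kinases Mapk4 and Mapk6 were higher in cocaine at each time point. Mapk4 (ERK4) had 19.3 FPKM with saline against 21.8 with cocaine at 2 h, 17.1 against 18.3 at 24 h, and 13.7 against 16.7 at 7 d. The 7 d difference, a log2 ratio of 0.27, was past 1.2-fold, but it rested on the lowest of the 3 saline values, whose spread was 0.48. Mapk6 (ERK3) had 13.4 against 16.1 FPKM at 2 h, 13.6 against 14.3 at 24 h, and 11.2 against 12.5 at 7 d, with a log2 ratio of 0.26 at 2 h that fell just short of the limit. The third atypical kinase gene, Mapk15, was not testable at any time point and stayed under 0.1 FPKM in every group.

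**Figure D2:**
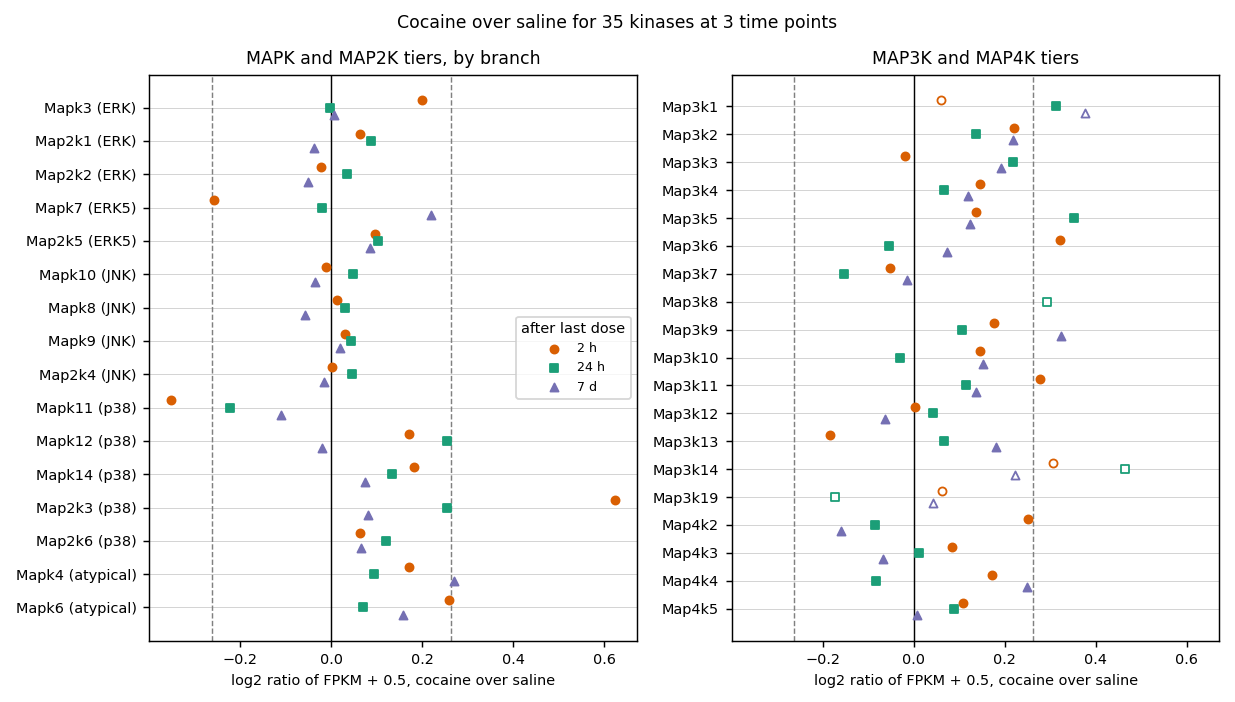
Log2 ratio of FPKM + 0.5, cocaine over saline, for 35 kinases at 2 h (circles), 24 h (squares) and 7 d (triangles), on the left the MAPK and MAP2K tiers grouped by branch and on the right the MAP3K and MAP4K tiers. Dashed lines mark 1.2-fold and open symbols a mean below 1 FPKM; the JNK genes sit near the zero line, and Map2k3 at 0.62 and Mapk11 at -0.35 stand farthest out at 2 h.

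Most MAP3Ks were low in this tissue, and 2 stood above the rest. Map3k10, which encodes the mixed lineage kinase MLK2, had 81.5 FPKM with saline against 90.2 with cocaine at 2 h, 94.4 against 92.4 at 24 h, and 80.92 against 90.05 at 7 d. Map3k12, which encodes the dual leucine zipper kinase DLK of injured axons, had 25.1 against 25.2 FPKM at 2 h, 23.4 against 24.1 at 24 h, and 24.6 against 23.5 at 7 d. Both act on the JNK branch, and neither passed the limit at any time point. The median saline level of the tier was 4.47, 4.40 and 3.31 FPKM at 2 h, 24 h and 7 d, against 19.3, 17.1 and 17.6 for the MAPK tier.

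Of the MAP3Ks with at least 1 FPKM, 8 of 11 were higher in cocaine at 2 h, 9 of 12 at 24 h and 9 of 11 at 7 d. These shares were 72.7%, 75% and 81.8%, against 56.6%, 53.1% and 47.5% of all genes. At 7 d the ratios of all genes went with transcript length, whose median was 5391 nt in this tier against 3052 nt for all genes. Map3k6, which encodes the apoptosis signal-regulating kinase ASK2, had 2.05 FPKM with saline against 2.69 with cocaine at 2 h, 1.84 against 1.75 at 24 h, and 2.201 against 2.341 at 7 d. Its 2 h cocaine value lay above all 3 saline values, with a log2 ratio of 0.32, and its ratios at 24 h and 7 d, -0.05 and 0.07, were within the saline spread of 0.21. Map3k11, which encodes the mixed lineage kinase MLK3, had 3.67 against 4.55 FPKM at 2 h, 4.54 against 4.95 at 24 h, and 3.67 against 4.09 at 7 d. It was higher in cocaine each time, by log2 ratios of 0.28, 0.11 and 0.14, but its 2 h cocaine value was at the level of the 24 h saline value.

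Map3k5, which encodes the oxidative stress kinase ASK1, had 6.84 FPKM with saline against 7.58 with cocaine at 2 h, 6.34 against 8.24 at 24 h, and 5.98 against 6.56 at 7 d. Its log2 ratio at 24 h was 0.35, against a spread of 0.18 among its saline values, and 97.2% of all genes had a lower ratio at 24 h. Map3k9, which encodes the mixed lineage kinase MLK1, had 3.96 against 4.54 FPKM at 2 h, 3.89 against 4.22 at 24 h, and 3.03 against 3.92 at 7 d. The 7 d ratio of 0.32 was past the limit, yet the 7 d cocaine value lay within the range of its saline values at 2 h and 24 h. As for Mapk4, the 7 d saline value was the low one.

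Map3k1, which encodes the kinase MEKK1, had 0.931 FPKM with saline against 0.993 with cocaine at 2 h, 0.893 against 1.23 at 24 h, and 0.698 against 1.06 at 7 d. Map3k14, which encodes the NF-kappa B inducing kinase NIK, had 0.698 against 0.982 FPKM at 2 h, 0.588 against 1.0 at 24 h, and 0.552 against 0.727 at 7 d. In both genes every cocaine value was above every saline value, but both were too low for the limit of 1 FPKM, apart from Map3k1 at 24 h. Map3k15 was not testable at any time point. Map3k8, the ERK-activating kinase Tpl2, was testable at 24 h only, with 0.329 and 0.516 FPKM, and Map3k19 had 0.479 to 0.791 FPKM over all groups. With these genes below the limit, 32 of 35 kinases passed it at 2 h, 33 of 36 at 24 h and 32 of 35 at 7 d.

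Map3k7, which encodes TAK1, a kinase of cytokine and TGF-beta signaling, was the 1 kinase above the limit with all 3 cocaine values below all 3 saline values. It had 8.00 FPKM with saline against 7.70 with cocaine at 2 h, 8.39 against 7.50 at 24 h, and 7.81 against 7.72 at 7 d. The log2 ratios were small, -0.05, -0.15 and -0.01. Over all 12618 genes above the limit in every table, 4.55% had all cocaine values below all saline values and 3.42% had them above. None of the 32 kinases was in the second group.

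The remaining MAP3Ks above 1 FPKM did not pass the 1.2-fold limit. Map3k2, Map3k3 and Map3k4, which encode MEKK2, MEKK3 and MEKK4, had log2 ratios from -0.02 to 0.22 over the 3 time points. Map3k13, which encodes the leucine zipper kinase LZK, had 6.65 against 5.79 FPKM at 2 h, 5.127 against 5.396 at 24 h, and 1.18 against 1.41 at 7 d. Its locus began 51843 bases further along the chromosome in the 7 d table, where the level was lower in both groups. The part of this other gene model in the lower level was not tested. The bounds of Map3k10, Map3k11 and Map2k6 also differed between tables, by up to 31605, 13295 and 9779 bases. Map3k4 stood on 2 rows with the same bounds in each table, and the row with the higher FPKM was used.

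All 4 MAP4Ks were measured at 6 FPKM or more, and none was past 1.2-fold. Map4k4, which encodes HGK, a kinase upstream of JNK, had 11.1 FPKM with saline against 12.6 with cocaine at 2 h, 12.9 against 12.2 at 24 h, and 10.9 against 13.0 at 7 d. Map4k2, which encodes the germinal center kinase, had 11.6 against 13.8 FPKM at 2 h, 13.9 against 13.1 at 24 h, and 13.3 against 11.9 at 7 d. Map4k2 was higher in cocaine at 2 h and lower at the later time points, with log2 ratios of 0.25, -0.08 and -0.16, and its saline values alone spread by 0.26. Map4k3 had 13.2 to 15.3 FPKM and Map4k5 6.82 to 7.46 over all 6 groups, with log2 ratios from -0.07 to 0.11. Map4k1, a kinase of blood cells, was not testable at any time point and was listed at 0.27 to 0.34 FPKM.

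In each tier the median was above that of all genes at 2 h, and so it was at 24 h and 7 d in every tier but the MAP4Ks. With a mean of at least 5 FPKM required, the MAP3K median at 2 h was 0.00, below that of all genes (0.02). At 2 h the median log2 ratios were 0.14 for the MAPK, 0.06 for the MAP2K, 0.15 for the MAP3K and 0.14 for the MAP4K tier. At 24 h they were 0.04, 0.10, 0.09 and -0.04, and at 7 d 0.01, 0.02, 0.14 and -0.03. By branch, the p38 genes had medians of 0.17, 0.13 and 0.07, the atypical kinases 0.21, 0.08 and 0.21, the ERK5 genes -0.08, 0.04 and 0.15, and the JNK genes 0.01, 0.05 and -0.03. With at least 5 FPKM required, the p38 medians came from Mapk11 and Mapk14 alone and were -0.085, -0.044 and -0.017, so their direction turned. Over all 5 p38 genes the ratios ranged from -0.35 to 0.62 at 2 h. The medians over all 32, 33 and 32 kinases were 0.12, 0.07 and 0.07, against 0.02, 0.01 and -0.01 over all genes.

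**Figure D3:**
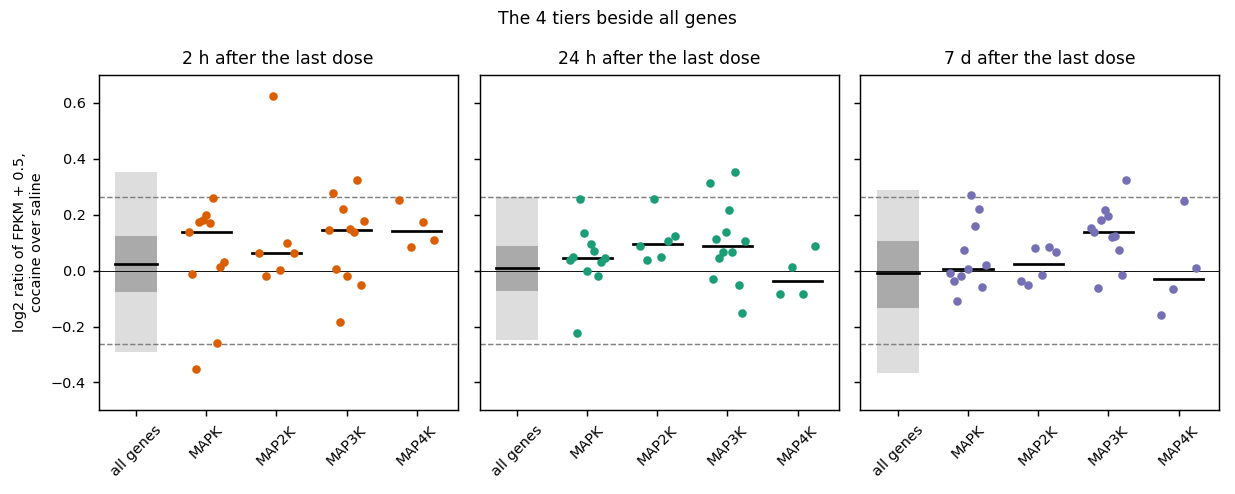
Log2 ratio of FPKM + 0.5, cocaine over saline, of the kinases with at least 1 FPKM in each tier (points, with the median as a line), beside all genes (median, middle 50% in dark grey and middle 90% in light grey), in 1 panel per time point with 1.2-fold as dashed lines. Most points lie above 0 at 2 h and 24 h but inside the dashed lines.

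The direction of these small differences leaned to one side. At 2 h 25 of 32 kinases had a higher value in cocaine (78.1%, against 56.6% of all genes), at 24 h 25 of 33 (75.8% against 53.1%) and at 7 d 20 of 32 (62.5% against 47.5%). Of the 32 kinases above the limit in every table, 13 were higher in cocaine at all 3 time points, 40.6% against 18.9% of all genes. They were Map2k3, Map2k5, Map2k6, Map3k2, Map3k4, Map3k5, Map3k9, Map3k11, Map4k5, Mapk4, Mapk6, Mapk9 and Mapk14. Those lower at all 3 time points were Map3k7 and Mapk11, 6.25% against 14.5%. These shares were not matched for transcript length or level, and no length trend was subtracted from them. Among kinases of at least 20 FPKM, 9 of 11 were higher at 2 h, 8 of 10 at 24 h and 4 of 10 at 7 d. Of all genes at that level 57.7%, 51.4% and 35.4% were higher. The time points have control groups of their own, but each group is 1 pooled value, and none of these shares carries a test.

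In most kinases the differences did not exceed the variation of the saline values between tables. In 12 of the 32 kinases, 37.5%, the largest of the 3 log2 ratios was past the spread of the saline values, compared with 44.7% of all genes. Across the 32 kinases the log2 ratios at 2 h and 24 h had a Pearson's r of 0.42 and a Spearman's rho of 0.28, where all 12618 genes had 0.07 and 0.11. For 2 h and 7 d r was 0.18 and rho 0.29 (all genes 0.20 and 0.31), and for 24 h and 7 d r was 0.31 and rho 0.38 (all genes -0.18 and 0.05). The kinases are not independent replicates, and within a time point all share the same libraries. The order of the saline levels, in contrast, was nearly the same in each pair of tables, with rho between 0.97 and 0.99.

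The kinases have long transcripts, with a median of 4282.5 nt at 2 h against 3057 nt for all genes, and 5391 nt in the MAP3K tier. At 7 d the log2 ratio of all genes went with transcript length (Spearman's rho 0.48 across 10938 genes), and among the 32 kinases rho was 0.22. Pearson's r, with length on the log2 scale, was 0.346 for all genes and 0.351 for the kinases. With the median ratio of genes of like length subtracted, the kinases' median at 7 d was 0.05. On the same footing 0 kinases were past 1.2-fold at 7 d, with log2 ratios of 0.18 for Map3k9 and 0.21 for Mapk4. At 2 h the ratios of Map2k3 and Mapk11 were then 0.61 and -0.37.

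Other genes of the pathway were listed by role. Of 48 such genes with at least 1 FPKM at 2 h, 5 were past 1.2-fold (10.4%, against 14.9% of all genes), all higher in cocaine. At 24 h 1 of 49 was (2.04% against 9.49%) and at 7 d 6 of 48 (12.5% against 16.9%), again all higher, so these shares too were below those of all genes. A higher value in cocaine, of any size, was found in 37 of 48 at 2 h (77.1% against 56.6%), 23 of 49 at 24 h (46.9% against 53.1%) and 36 of 48 at 7 d (75.0% against 47.5%). At 7 d these genes too had long transcripts, with a median of 4489 nt against 3052 nt for all genes. The median ratio of genes of like length was not subtracted in these counts. Neither Araf nor Braf, which encode RAF kinases that act as MAP3Ks of the ERK branch, was past the limit.

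Among these other genes the largest ratios at 2 h were those of Mknk2 and Rps6ka2, 2 of 8 kinases listed as substrates of MAP kinases, and the other 6 were not past the limit. Mknk2, which encodes a kinase of the translation factor eIF4E, had 9.005 FPKM with saline against 12.3 with cocaine, and Rps6ka2, which encodes the ribosomal S6 kinase RSK3, had 15.7 and 20.5. Their log2 ratios were 0.43 and 0.38. Ksr1, a scaffold of RAF, MEK and ERK, had a ratio of 0.30 at 2 h, and Rasa1, a GTPase activator that switches Ras off, had 0.29.

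Tnik, a STE20 kinase related to the MAP4Ks, was past 1.2-fold at each time point. It had 10.4 FPKM with saline against 13.3 with cocaine at 2 h, 9.05 against 11.6 at 24 h, and 7.57 against 9.60 at 7 d. The log2 ratios of 0.34, 0.34 and 0.32 were even, although the saline level differed between the tables. The 7 d cocaine value of Tnik lay within the range of its saline values, below that of 2 h. The share of all genes past 1.2-fold at each time point was not counted. At 7 d the scaffold genes Ksr2 (0.49), Iqgap1 (0.29) and Arrb1 (0.28), the adaptor gene Shc3 (0.42) and the Ras GTPase activator gene Nf1 (0.39) were also past the limit. From these ratios the median of genes of like transcript length was not subtracted. In Ksr2, Iqgap1, Arrb1, Shc3 and Nf1 the 7 d saline value was the lowest of the gene's saline values. The 7 d cocaine value of each lay within the range of those saline values, as for Mapk4 and Map3k9.

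The tissue carried the markers of cortex: 6 of 6 markers of excitatory neurons were at 9.90 FPKM or more in every group. Their sum was 1497 FPKM with saline against 1618 with cocaine at 2 h. It was 1664 against 1602 at 24 h and 1401 against 1566 at 7 d. Of these markers Neurod2 was past 1.2-fold at 2 h, higher in cocaine, and Neurod6 at 7 d, lower. Of 6 choroid plexus markers 2 had at least 1 FPKM at each time point, and the listed ones summed to 3.44 FPKM with saline against 2.38 with cocaine at 2 h, 4.03 against 3.44 at 24 h, and 3.36 against 9.53 at 7 d. Ttr, the defining one, had 1.90 against 0.461 FPKM at 2 h, 1.801 against 1.0999 at 24 h, and 0.284 against 6.54 at 7 d. Kcnj13 had 1.54 against 1.92, 2.23 against 2.34, and 2.04 against 2.16 FPKM, opposite in direction to Ttr at 2 h and 24 h. Kl (0.376 against 0.531 FPKM) and Folr1 (0.668 against 0.290) were listed at 7 d only and enter that sum alone. The 5 red blood cell markers were all past 1.2-fold at 2 h, higher in cocaine, with a summed level of 323 FPKM with saline against 504 with cocaine. At 24 h that sum was 458 and 504, and at 7 d 452 and 529. Oligodendrocyte markers summed to 561 FPKM with saline against 528 with cocaine at 2 h, 691 against 572 at 24 h, and 759 against 750 at 7 d. These sums cover 4 of 6 markers at 2 h, without Mobp and Mag, and all 6 at 24 h and 7 d. Mobp had 0.554 FPKM with saline at 24 h and 86.0 at 7 d, so the sums compare only within a time point. Astrocyte markers summed to 319 against 351, 367 against 327, and 313 against 351 FPKM. For microglia, endothelium, interneurons and striatal neurons the log2 ratios of the sums ran from -0.13 to 0.18. The part of these cells in the kinase ratios was not tested.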

How the data were processed

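RNA of the prefrontal cortex was sequenced (poly-A RNA, paired ends). After trimming, the authors aligned reads with TopHat2 (version 2.0.12 in the submitters' processing notes), retained those with a single mapped position, and estimated FPKM with Cuffdiff (Cufflinks 2.2.1 in the notes), 1 run for each time point. The deposited tables give 1 FPKM per group and locus, pooled by the authors over 2 libraries. The tables also hold the authors' own fold changes, test statistics, p and q values, none of which was used. The file headers name the columns C_2H and 2H (and so on), which the sample labels do not settle; the study's supplementary gene tables give the first as saline and the second as cocaine, and the columns were read in this way. In the sample descriptions the letter C alone marks cocaine, so the names by themselves could be read the other way round, which would turn every direction. The methods name mm9, but the notes name GRCm38, and the Mapk11 locus starts where RefSeq places the gene on GRCm38.

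Rows with status OK and a gene name were used, and where a symbol stood on several rows the longest locus was taken, then the higher mean FPKM. Starts were converted to 1-based positions. The log2 ratio used a pseudocount of 0.5 FPKM, which understates the change of low genes, and the limit was a mean of 1 FPKM. The spread of saline values is the log2 ratio of the highest to the lowest of the 3 saline values with the same pseudocount. Transcript lengths were those of the longest coding transcript of the symbol in GENCODE M1, found for 82.8%, 82.2% and 82.2% of genes, and the length trend was a running median over 501 genes. No test was made, since each group is 1 pooled value. Branches were assigned in the MAPK and MAP2K tiers only, since MAP3Ks and MAP4Ks feed several branches.

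Some genes are counted but not reported here by name. Otherwise, kinases named with their values were all MAPK and MAP2K members, all MAP3K and MAP4K members past 1.2-fold, the most and least abundant of each tier, and the other pathway genes past 1.2-fold; other MAP3K and MAP4K genes were named after their values were seen, to account for every member. The members and lists were chosen with earlier results of these data known. The steps were tested on simulated data. Python 3.11.15, pandas 2.3.3, numpy 2.4.6 and matplotlib 3.10.9 were used.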

Additional observations from a re-analysis of the deposited data

How the results depend on the processing

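The counts of kinases past the limit depended on the settings, as few kinases lay far from it. With a fold of 1.1 the counts were 19, 8 and 11 at 2 h, 24 h and 7 d, which is 59.4%, 24.2% and 34.4% of the kinases against 37.9%, 28.5% and 44.1% of all genes, so at 2 h the share lay above that of all genes. With a fold of 1.5 they were 1, 0 and 0, which is 3.13%, 0% and 0% against 3.20%, 2.67% and 3.01%. A mean of at least 5 FPKM left 1, 1 and 1, which is 4.55%, 4.55% and 4.76% against 9.95%, 6.09% and 14.6%. A pseudocount of 0.1 FPKM gave 7 at 2 h (21.9% against 17.8% of all genes) and 4 at 24 h (12.1% against 11.7%). A pseudocount of 1 FPKM gave 1 at 24 h (3.03% against 7.47%) and 1 at 7 d (3.13% against 13.9%). No filter on low FPKM gave 4 at 24 h (11.1% against 11.9%). With the length trend taken out, 0 kinases were past 1.2-fold at 7 d, against 8.82% of all genes. Requiring at least 1 FPKM in both groups, an alternative chosen after seeing the data, gave 1 at 24 h (3.13% against 7.71%). Centring, or taking the length trend out, left 4 kinases at 2 h (12.5%, against 14.6% and 11.7% of all genes) but with Mapk7 in place of Map3k11. The other 17 of 33 alternative counts, these included, were within 1.5 times of the reported ones.

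Of the alternative medians, 266 moved by less than 0.1 on the log2 scale and 4 did not. These 4 arose with a mean of at least 5 FPKM, where fewer genes were left: the median was 0.10 for the ERK5 branch, 0.00 for the MAP3K tier (0.00379) and -0.085 for the p38 branch at 2 h, and -0.044 for the p38 branch at 24 h. The JNK median at 2 h, 0.01, was -0.02 after centring and -0.03 with the length trend taken out. With the length trend taken out, the ratio of Mapk10 at 7 d was -0.16 in place of -0.04, that of Map3k9 0.18 in place of 0.32, and the JNK median at 7 d -0.09 in place of -0.03. The 8 ratios past the limit kept their direction under each alternative that gave a value, but Map2k3, Map3k1, Map3k6, Map3k9 and Map3k11 had none with a mean of at least 5 FPKM, and the alternative folds leave ratios as they are. No paired analysis was possible because the tables hold 1 pooled value per group and no columns for the numbered replicates, and leaving out a replicate was not possible for the same reason. The depth of the libraries is unknown from the tables, so no counting error could be given.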
